A study of Homo sapiens with 44 samples.

Results

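Control cells of 2 human neuroblastoma lines were compared on Affymetrix Clariom S arrays, 18 of the 40 distinct arrays of the series. CHP134 is a line with amplified MYCN, and SK-N-AS is a line without MYCN amplification. Arrays were taken if their labels gave the SCR control shRNA, whichever treatment the cells had, and 4 columns that repeated other arrays were dropped, which left 12 CHP134 arrays (6 with vehicle and 6 with doxycycline, DOX) and 6 SK-N-AS arrays (3 with vehicle and 3 with DOX). All 18 came from cells made stable with a lentiviral, DOX-inducible GFP-IRES-shRNA construct and sorted for high GFP, and the treatment, DOX at 2 µg/ml or its vehicle, lasted 40 hours. The medium was RPMI for CHP134 and DMEM for SK-N-AS. With 1 line of each kind, MYCN status, medium and every other difference between the lines cannot be told apart. Repeats are told apart by letters. The experiments are described as repeated, with no statement of whether each letter stands for a culture of its own, and each p-value below is therefore set against the spread of these arrays alone, part or all of which may be technical.

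Neuroblastoma arises from the sympathetic branch of the neural crest, whose normal descendants are sympathetic neurons and the chromaffin cells of the adrenal medulla. MYCN and MYC encode related transcription factors that pair with MAX and bind E-boxes, and amplification of MYCN marks a high-risk group of tumors. Cultured neuroblastoma cells are known to take an adrenergic state, held by factors such as HAND2, GATA3 and ISL1, or a mesenchymal state, in which PRRX1, AP-1 and YAP factors and genes of matrix and adhesion are expressed.

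The values were log2 intensities normalized by robust multi-array average (RMA), separately for each line, so each array was turned into percentile ranks over the 21448 transcript clusters that are not controls, where 100 is the brightest cluster. Differences below are in percentile points, and a level is a rank. Line and RMA run cannot be told apart. A background threshold, the signal that 95% of an array's negative controls stay under, lay at percentile 19.55 to 27.6 of the CHP134 arrays and 18.95 to 24.2 of the SK-N-AS arrays, and ranks under it order clusters that are not above background. Arrays correlated at r = 0.975 to 0.995 within CHP134, 0.984 to 0.994 within SK-N-AS and 0.865 to 0.877 between the lines, over clusters of shared base composition and probe design. The median SD of a cluster's rank was 2.81 points in CHP134 and 2.29 points in SK-N-AS. In SK-N-AS the vehicle array without a repeat letter and DOX repeat B stood apart from the rest: they correlated with each other at 0.994, with the other 4 arrays at 0.984 to 0.987, and those 4 with each other at 0.993 or more. Results that these arrays move most are given with and without them.

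With vehicle and DOX arrays pooled, most transcripts were called as different between the lines, many by little. Fewer were called, of the same 21448, with fewer arrays: 9293 on vehicle arrays alone and 10249 on DOX arrays alone. limma with Benjamini-Hochberg adjustment called 12721 of 21448 clusters (59.3%) at an adjusted p under 0.05, of which 6976 were higher in CHP134 (32.5% of all clusters) and 5745 higher in SK-N-AS (26.8%). On the deposited log2 scale, where the median of all clusters was shifted by 0.17 towards CHP134, 66.2% of the calls were higher in CHP134, against 54.8% on ranks. A difference of at least 20 points was therefore asked for in addition, which 2079 clusters met (9.69%), 921 with the higher rank in CHP134 (4.29%) and 1158 in SK-N-AS (5.4%). The arrays of the lines did not overlap for 7145 clusters (33.3%) and for 2068 of the 2079. Of the 12721 calls, 744 were of clusters under background on all 18 arrays, whose direction has no meaning. All 2079 kept their call without both SK-N-AS arrays that stood apart, and 1988 of them still differed by at least 20 points. The plot of line means shows both groups away from the diagonal, with MYCN at the upper left and VIP at the lower right.

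**Figure D1:**
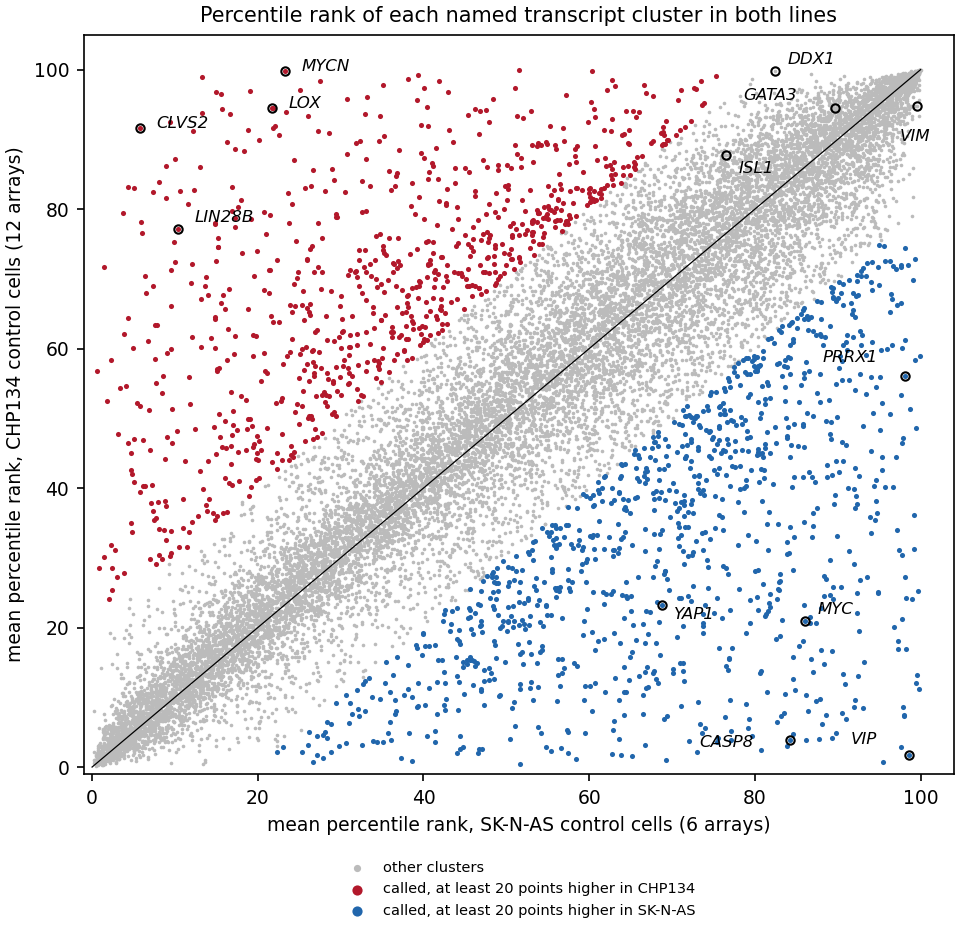
Mean percentile rank of each named transcript cluster in SK-N-AS control cells (6 arrays, horizontal axis) and CHP134 control cells (12 arrays, vertical axis). Red and blue points were called by limma and differ by at least 20 points, grey points are all others, the line marks equal ranks, and the circled genes are named in the text.

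MYCN and MYC stood in opposite order in the lines. In CHP134, MYCN had a lowest, median and highest rank of 99.6, 99.8 and 99.8, among the brightest clusters on every array (3 ranks of a gene are given in this order throughout, CHP134 first), while in SK-N-AS it had 20.9, 22.9 and 26.4 and was above background on 5 of 6 arrays, close to the threshold. The difference was 76.5 ± 0.705 points (SE, adjusted p = 1.64e-21), and the log2 means as deposited were 12.22 and 4.12. MYC, the family member expressed in most dividing cells, ranked at 15.3, 21.6 and 26.5 in CHP134, where it was above background on 4 of 12 arrays, and at 81.9, 86.8 and 88.4 in SK-N-AS, a difference of 65.1 ± 1.65 points (SE, adjusted p = 9.91e-16) in favor of SK-N-AS. The arrays of the lines overlapped for neither gene. VIM, which encodes the intermediate filament vimentin, was bright in both lines, with 93.9, 94.8 and 95.5 in CHP134 and 99.4, 99.6 and 99.6 in SK-N-AS. It was 4.8 ± 0.459 points (SE, adjusted p = 8.45e-08) higher in SK-N-AS, and because ranks are compressed at the top, that gap corresponded to log2 means of 10.05 and 11.64. JMJD6, the gene that the shRNAs of the series target and the control shRNA does not, ranked at 71.2, 73.5 and 77.7 in CHP134 and 66.3, 69.7 and 71.6 in SK-N-AS, 4.93 ± 1.05 points (SE, adjusted p = 6.25e-04) higher in CHP134.

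**Figure D2:**
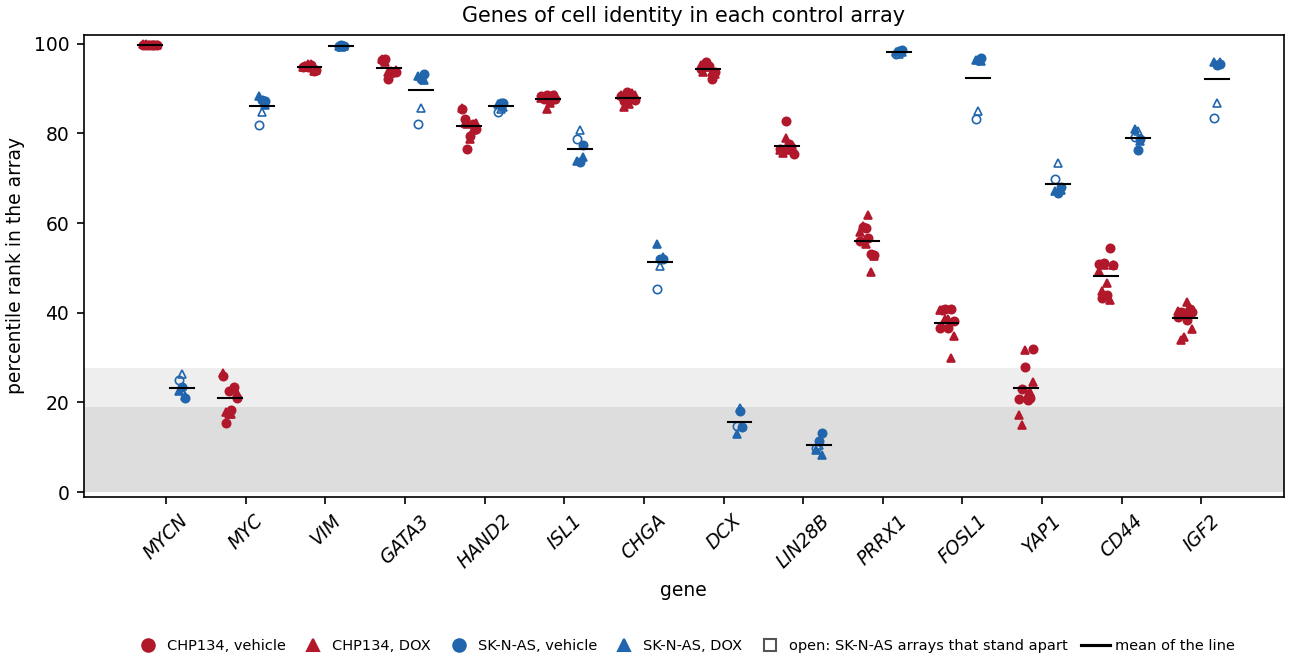
Percentile rank of 14 genes in each control array, CHP134 in red and SK-N-AS in blue, circles for vehicle and triangles for DOX, with open symbols for the SK-N-AS vehicle array without a letter and DOX repeat B, and a bar at the line mean. The dark and light grey bands reach up to the lowest and the highest background threshold of the 18 arrays. MYCN, CHGA, DCX and LIN28B lie higher in CHP134, MYC, PRRX1, FOSL1, YAP1, CD44 and IGF2 lie higher in SK-N-AS, and VIM, GATA3, HAND2 and ISL1 are high in both.

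Partners of the MYC proteins differed less than MYCN and MYC themselves. Of 12 measured genes of the MYC network, 4 (33.3%) were higher in CHP134, 3 (25%) higher in SK-N-AS and 5 were not called. These shares were near those of all clusters, 32.5% and 26.8%. The median difference of the list was 0.841 points against 0.511 over all clusters. MAX, the shared dimerization partner, ranked at 86.6 to 90.3 in CHP134 and 90.2 to 92.5 in SK-N-AS, 2.35 ± 0.546 points (SE, adjusted p = 0.0013) higher in SK-N-AS, a call that is lost on the deposited log2 scale (adjusted p = 0.655). MNT, a MAX-binding repressor, ranked at 64.9 to 78.3 and 57.9 to 63.4 and was 10.3 ± 2.07 points (SE, adjusted p = 3.73e-04) higher in CHP134. MLXIP, the glucose-sensing relative also called MondoA, was 14.8 ± 3.23 points (SE, adjusted p = 7.87e-04) higher in SK-N-AS, with ranks of 51.5 to 71.1 and 68.7 to 80.9, and was not called with CHP134 repeats A and B alone (-5.60 points, CHP134 minus SK-N-AS).

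Genes of ribosome biogenesis and polyamine synthesis, known targets of both MYC proteins, were bright in both lines. Their median rank was 89.7 in CHP134 and 87.1 in SK-N-AS. Of 28 measured members, 15 (53.57%) were higher in CHP134 (9 on vehicle arrays alone), against 32.5% of all clusters. Higher in SK-N-AS were 5 (17.86%, and 3 members on vehicle arrays alone), against 26.8% of all clusters. The other 8 were not called, and the median difference was 1.68 points. Ranks are compressed at the top, so a member near the top in 1 line could not rank 20 points higher in the other. It could still have ranked 20 points lower there, and no member did. This is a statement about ranks, and bright members can still differ on the log2 scale. MRTO4, a factor of large-subunit assembly, came closest, with 77.01, 82.5 and 85.8 in CHP134, 59.6, 61.9 and 65.1 in SK-N-AS and a difference of 19.9 ± 1.22 points (SE, adjusted p = 2.23e-10). RRP9, which binds the U3 small nucleolar RNA, was 15.8 ± 1.32 points (SE, adjusted p = 1.51e-08) higher in CHP134, with ranks of 69.2 to 75.7 and 50.6 to 59.4. NOP2, a methyltransferase of ribosomal RNA, went the other way, at 47.6 to 54.04 in CHP134 and 54.8 to 63.98 in SK-N-AS (7.46 ± 1.34 points higher in SK-N-AS, SE, adjusted p = 1.24e-04). SRM, which makes spermidine, was at 98.1 to 99.4 and 97.6 to 99.0 and was not called on ranks (adjusted p = 0.211), although it was called as higher in CHP134 on the deposited log2 scale (adjusted p = 4.64e-06).

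The genes next to MYCN on chromosome 2 were examined for 15 measured genes on each side. Of these 30 genes, 16 (53.33%) were higher in CHP134 and 4 (13.33%) in SK-N-AS, against 32.5% and 26.8% of all clusters, and 10 were not called. In the JMJD6 shRNA cells described at the end, 10 of the 30 were higher in CHP134, beside 5353 of all 21448 clusters. Of the 4 higher in SK-N-AS in control cells, RAD51AP2 was under background on all 18 arrays, which leaves VSNL1, TTC32 and ROCK2. DDX1, an RNA helicase gene that is the nearest measured neighbor on one side, ranked at 99.8, 99.8 and 99.9 in CHP134 and 80.6, 82.3 and 84.4 in SK-N-AS, 17.4 ± 0.5261 points (SE, adjusted p = 1.14e-14) higher in CHP134, with log2 means of 12.46 and 8.31. NBAS, the next gene outward, which takes part in transport from the Golgi to the endoplasmic reticulum, ranked at 82.5, 85.4 and 89.4 and 44.8, 51.5 and 54.4, a difference of 35.3 ± 1.44 points (SE, adjusted p = 8.25e-13). The differences did not run evenly along the chromosome. On the other side CYRIA, a regulator of actin, ranked at 34.6 to 41.3 in CHP134 and 25.9 to 29.5 in SK-N-AS (9.17 ± 0.97 points higher in CHP134, SE, adjusted p = 3.03e-07), while VSNL1, a neuronal calcium sensor, ranked at 50.3, 53.3 and 59.2 in CHP134 and 86.4, 87.7 and 88.2 in SK-N-AS and was 33.8 ± 1.24 points (SE, adjusted p = 1.72e-13) higher in SK-N-AS. GREB1, an estrogen-responsive gene 6 places from MYCN, ranked at 68.9, 74.1 and 80.9 and 20.03, 27.9 and 31.5 and was 48.03 ± 1.86 points (SE, adjusted p = 3.90e-13) higher in CHP134. ROCK2, a kinase gene of the actin cytoskeleton 8 places away, was 12.8 ± 1.73 points (SE, adjusted p = 5.74e-06) higher in SK-N-AS. Copy number was not measured.

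**Figure D3:**
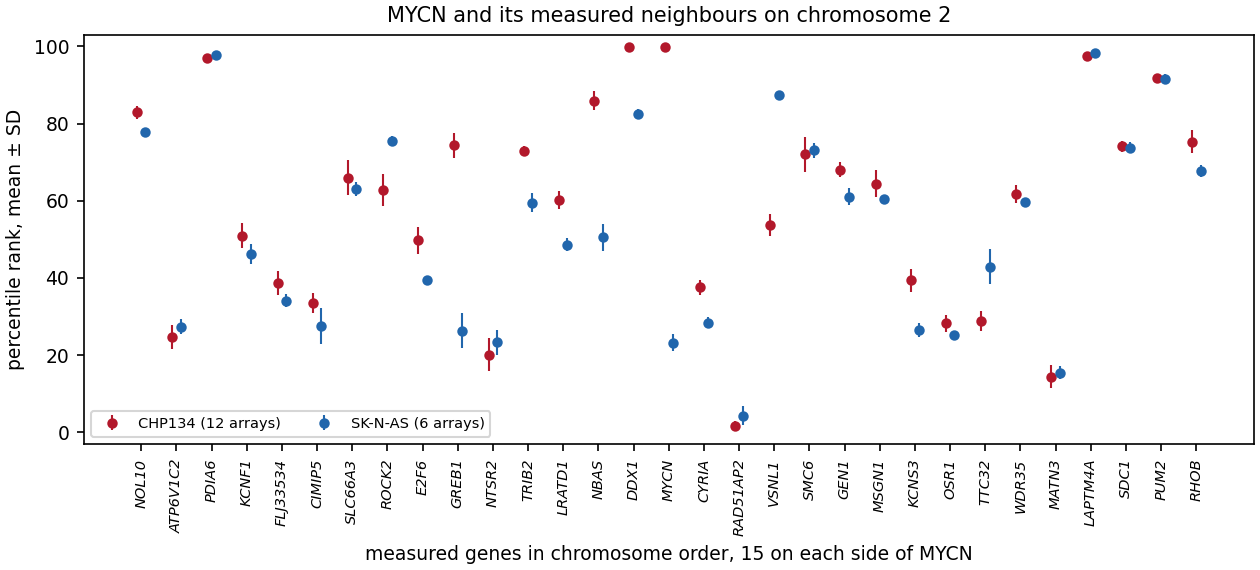
Mean percentile rank ± SD of MYCN and the 15 measured genes on each side of it in chromosome order, CHP134 in red (12 arrays) and SK-N-AS in blue (6 arrays). MYCN, DDX1, NBAS and GREB1 show the widest gaps in favor of CHP134, and VSNL1 the widest in favor of SK-N-AS.

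Both lines expressed transcription factors of the adrenergic state. GATA3 ranked at 92.1, 93.9 and 96.7 in CHP134 and 82.1, 92.01 and 93.2 in SK-N-AS, where the arrays that stood apart had 82.1 and 85.7 and the other 4 had 91.8 to 93.2. It was 4.86 ± 1.46 points (SE, adjusted p = 0.00873) higher in CHP134, and without the arrays that stood apart the difference was 1.97 points (adjusted p = 0.073). HAND2 ranked at 76.5, 82.01 and 85.7 in CHP134 and 84.8, 86.3 and 86.8 in SK-N-AS, 4.45 ± 1.15 points (SE, adjusted p = 0.00306) higher in SK-N-AS with overlapping arrays. That call is lost on vehicle arrays alone (adjusted p = 0.0553), with CHP134 repeats A and B alone (0.134), in JMJD6 shRNA cells (0.0915) and on the deposited log2 scale (0.144). ISL1 ranked at 85.5, 87.8 and 88.5 and 73.6, 76.1 and 80.7 and was 11.2 ± 0.945 points (SE, adjusted p = 1.63e-08) higher in CHP134. Over the whole list, 12 of 22 measured adrenergic factors (54.55%) were higher in CHP134, against 32.5% of all clusters. The 7 higher in SK-N-AS (31.82%) were near the 26.8% of all clusters. By at least 20 points, 4 (18.18%) were higher each way, against 4.29% in CHP134 and 5.4% in SK-N-AS. Of the 12 factors higher in CHP134, ST18 was under background on all 18 arrays. The median difference was 4.32 points, 2.91 with ranks under background set to the background percentile and 2.99 without the SK-N-AS arrays that stood apart.

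The large differences among these factors split by gene. INSM1, a zinc finger factor of neuroendocrine precursors, ranked at 74.9, 83.5 and 92.7 in CHP134 and 38.4, 39.6 and 44.6 in SK-N-AS, 43.8 ± 2.45 points (SE, adjusted p = 6.31e-11) apart. SATB1, a chromatin organizer, ranked at 92.02, 92.9 and 94.1 and 50.6, 52.0 and 53.5, 40.9 ± 0.554 points (SE, adjusted p = 1.98e-19) apart. LMO3, a LIM-only protein, was 25.8 ± 1.86 points (SE, adjusted p = 2.05e-09) higher in CHP134, with 65.01 to 75.95 and 36.8 to 47.4. Higher in SK-N-AS were TFAP2B, an AP-2 factor of sympathetic progenitors, at 18.5, 22.1 and 27.2 in CHP134 and 63.01, 66.7 and 72.5 in SK-N-AS (45.1 ± 1.53 points, SE, adjusted p = 6.08e-14), and GATA2 at 54.7, 61.5 and 65.2 and 89.8, 95.7 and 96.2 (33.1 ± 1.5 points, SE, adjusted p = 3.26e-12). HEY1, a Notch target, was 34.9 points and TBX2, a T-box repressor, 25.9 points higher in SK-N-AS, with no overlap of the arrays.

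Of the enzymes of catecholamine synthesis, TH and DBH were at middling or low ranks in both lines. TH, the rate-limiting enzyme, ranked at 48.2, 52.5 and 64.1 in CHP134 and 46.9, 48.9 and 51.6 in SK-N-AS. Its difference of 4.88 ± 1.89 points (SE, adjusted p = 0.0351) in favor of CHP134 loses its call when any of 7 of the 18 arrays is left out. DBH, which turns dopamine into noradrenaline, ranked at 27.2, 32.2 and 46.3 and 28.04, 31.4 and 34.3 and was not called (adjusted p = 0.601). DDC, which decarboxylates DOPA, ranked at 16.8, 23.9 and 28.3 in CHP134 and 57.6, 69.95 and 76.2 in SK-N-AS, 44.6 ± 2.27 points (SE, adjusted p = 1.79e-11) higher in SK-N-AS. CYB561, which supplies DBH with electrons, was 39.2 ± 1.44 points (SE, adjusted p = 1.82e-13) higher in SK-N-AS, and SLC18A2, a vesicular monoamine transporter, 16.8 ± 1.45 points (SE, adjusted p = 2.13e-08) higher in CHP134. GCH1, which starts synthesis of the cofactor of TH, was 11.1 points higher in CHP134. Counted over the list, 6 of 14 members (42.9%, against 32.5% of all clusters) were higher in CHP134 (3 on vehicle arrays alone). Higher in SK-N-AS were 4 (28.6%, against 26.8% of all clusters, and 2 on vehicle arrays alone), and 4 were not called. The median difference of 0.0713 points had no stable sign, at 1.59 without the SK-N-AS arrays that stood apart and -0.737 in JMJD6 shRNA cells.

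Neuronal and neurosecretory genes leaned to CHP134. Of 32 measured members, 25 (78.1%) were higher in CHP134 and 5 (15.62%) higher in SK-N-AS, against 32.5% and 26.8% of all clusters. By at least 20 points, 17 (53.1%) and 3 (9.375%) were higher, against 4.29% and 5.4%. The median difference was 20.8 points. DCX, a microtubule protein of migrating neuroblasts, ranked at 92.2, 94.5 and 95.9 in CHP134 and 13.1, 14.7 and 18.6 in SK-N-AS, where it was not above background on any array. ELAVL3, a neuronal RNA-binding protein, ranked at 91.8, 94.1 and 95.1 and 11.8, 17.4 and 19.4. CHGA, the chromogranin of dense-core granules, ranked at 85.96, 88.3 and 89.3 and 45.3, 51.95 and 55.4, 36.7 ± 0.985 points (SE, adjusted p = 2.09e-15) apart. STMN2, a regulator of growing axons, was 35.7 ± 1.48 points (SE, adjusted p = 9.52e-13) higher in CHP134, NEFH, the heavy neurofilament, 39.8 ± 1.49 points (SE, adjusted p = 2.21e-13) and SCG3, a secretogranin, 49.8 ± 1.84 points (SE, adjusted p = 1.93e-13).

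The 3 members at least 20 points higher in SK-N-AS encode secreted peptides or their precursors. NPY, neuropeptide Y, ranked at 45.8, 55.1 and 58.8 in CHP134 and 70.8, 89.5 and 90.6 in SK-N-AS (29.2 ± 3.07 points, SE, adjusted p = 2.81e-07), and SCG2, a secretogranin, at 69.2, 75.3 and 84.02 and 97.9, 98.2 and 98.2 (23.7 ± 1.76 points, SE, adjusted p = 3.19e-09). VIP, vasoactive intestinal peptide, ranked at 0.24, 1.84 and 4.72 in CHP134, under background on all 12 arrays, and at 98.3, 98.5 and 98.9 in SK-N-AS, so that with ranks under background set to the background percentile the difference was still 75.8 points. For ELAVL4, a relative of ELAVL3, and SYT4, a synaptotagmin, the SK-N-AS arrays disagreed among themselves. ELAVL4 ranked at 99.6, 99.8 and 99.9 in CHP134 and 43.05, 67.1 and 69.8 in SK-N-AS, with 43.05 and 46.1 on the arrays that stood apart, and its difference went from 39.4 to 31.5 points without them. SYT4 ranked at 34.6 to 44.3 in CHP134 and at 72.3 and 73.7 on those arrays, against 31.2 to 37.8 on the other 4. It was not called (adjusted p = 0.151).

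Receptors of sympathetic development also differed gene by gene. Of 19 measured, 11 (57.89%) were higher in CHP134 and 2 (10.53%) higher in SK-N-AS, against 32.5% and 26.8% of all clusters. By at least 20 points, 7 (36.84%) and 2 (10.53%) were higher, against 4.29% and 5.4%. SSTR2, a somatostatin receptor used for imaging of neuroendocrine tumors, ranked at 89.3, 91.5 and 92.4 in CHP134 and 15.02, 18.9 and 22.7 in SK-N-AS. GFRA1, a co-receptor of the ligand GDNF, ranked at 93.1, 93.99 and 95.1 and 18.1, 24.04 and 27.5 (70.6 ± 1.04 points, SE, adjusted p = 6.01e-19), and KIT, the receptor of stem cell factor, at 68.5, 70.2 and 73.8 and 3.76, 6.22 and 8.66 (63.95 ± 0.737 points, SE, adjusted p = 3.13e-20). RET, the signaling receptor that GFRA1 serves, had the opposite order, 48.98, 52.5 and 59.1 in CHP134 and 91.3, 92.7 and 96.6 in SK-N-AS, 39.9 ± 1.73 points (SE, adjusted p = 1.87e-12) higher in SK-N-AS. ALK, a receptor kinase mutated in some neuroblastomas, was 25.2 ± 1.35 points (SE, adjusted p = 3.40e-11), NTRK3, a neurotrophin receptor, 29.9 points and CXCR4, a chemokine receptor, 29.2 points higher in CHP134. LGR5, an R-spondin receptor, ranked at 40.7 to 60.2 in CHP134 and 92.4 to 95.9 in SK-N-AS and was 43.5 points higher in SK-N-AS.

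Mesenchymal transcription factors leaned to SK-N-AS. Of 39 measured, 27 (69.2%) were higher in SK-N-AS, against 26.8% of all clusters. Higher in CHP134 were 8 (20.51%, against 32.5%, and 3 to 5 members in subsets of the arrays by repeat or treatment). By at least 20 points, 18 (46.2%) and 1 (2.564%) were higher, against 5.4% and 4.29% of all clusters. The median difference was -16.6 points, CHP134 minus SK-N-AS. PRRX1, a homeobox factor that defines this state, ranked at 49.1, 56.3 and 61.7 in CHP134 and 97.7, 98.2 and 98.5 in SK-N-AS, 42.1 ± 1.54 points (SE, adjusted p = 1.69e-13) higher in SK-N-AS. FOSL1, an AP-1 subunit, ranked at 29.9, 38.4 and 40.9 and 83.3, 96.2 and 96.9 (54.5 ± 2.18 points, SE, adjusted p = 5.83e-13), lower on the SK-N-AS arrays that stood apart, at 83.3 and 84.9, than on the other 4, at 96.04 to 96.9, and 58.6 points apart without them. YAP1, the effector of the Hippo pathway, ranked at 15.1, 22.1 and 31.9 and 66.7, 67.7 and 73.5, 45.6 ± 2.23 points (SE, adjusted p = 9.75e-12) apart. TCF7L2, an effector of Wnt signaling, ranked at 7.1, 10.8 and 14.2 in CHP134, under background on every array, and 73.5, 83.7 and 87.1 in SK-N-AS. IFI16, a sensor of DNA, was 69.9 points, RUNX1 52.1 points and BHLHE41, a clock-linked repressor, 59.5 points higher in SK-N-AS. Members of a family did not all go the same way. Of further AP-1 subunits, FOSL2 was 14.9 points higher in SK-N-AS and JUN 10.5 points higher in CHP134. TWIST1, SNAI1 and ZEB1 were 10.95, 8.28 and 2.58 points higher in CHP134, and TWIST2, SNAI2 and ZEB2 were 48.4, 15.8 and 11.2 points higher in SK-N-AS. SIX4, a homeobox factor, was the 1 factor with a large difference the other way, at 67.4, 72.4 and 75.01 in CHP134 and 10.8, 20.1 and 31.02 in SK-N-AS (49.9 ± 2.31 points, SE, adjusted p = 4.69e-12).

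Genes of mesenchymal structure and matrix also leaned to SK-N-AS, with a median difference of -18.7 points. Of 45 measured, 35 (77.8%) were higher in SK-N-AS and 4 (8.889%) in CHP134, against 26.8% and 32.5% of all clusters. By at least 20 points, 21 (46.7%) and 1 (2.222%) were higher, against 5.4% and 4.29%. S100A11 and ANXA1, which bind membranes in a calcium-dependent way, were under background on all CHP134 arrays, at 6.28, 12.3 and 13.98 and 3.47, 8.5 and 14.9, and ranked at 99.7, 99.9 and 99.9 and 97.7, 97.8 and 98.1 in SK-N-AS. TIMP1, an inhibitor of matrix metalloproteinases, ranked at 16.4, 23.7 and 30.8 and 98.8, 99.04 and 99.2, 74.9 ± 1.85 points (SE, adjusted p = 7.00e-16) apart. The integrin subunits ITGA2, ITGA3 and ITGA5, which bind collagen, laminin and fibronectin, were 73.2, 69.7 and 68.7 points higher in SK-N-AS. CD44, a receptor of hyaluronan, ranked at 42.9, 49.95 and 54.3 and 76.3, 79.0 and 81.01 (30.8 ± 1.61 points, SE, adjusted p = 2.45e-11). FN1, fibronectin itself, ranked at 27.6, 30.99 and 43.7 in CHP134 and 32.4, 37.2 and 52.3 in SK-N-AS and was not called (adjusted p = 0.0624), with a difference of 2.1 points in favor of SK-N-AS without the arrays that stood apart. LOX, which cross-links collagen and elastin, was the 1 member with a large difference towards CHP134, where it ranked at 93.6, 94.3 and 95.9 against 15.8, 22.8 and 24.2 in SK-N-AS (72.8 ± 0.973 points, SE, adjusted p = 1.64e-19).

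Among targets of YAP and TEAD factors, 11 of 19 (57.89%) were higher in SK-N-AS, against 26.8% of all clusters. The 6 higher in CHP134 (31.58%) were near the 32.5% of all clusters. By at least 20 points, 8 (42.11%) and 0 were higher, against 5.4% and 4.29%, and the median difference was -15.5 points. NT5E, the ectonucleotidase CD73, ranked at 13.3, 16.4 and 23.4 in CHP134 and 96.6, 97.4 and 97.7 in SK-N-AS, 80.3 ± 1.38 points (SE, adjusted p = 5.02e-18) higher in SK-N-AS. MYOF, a ferlin of membrane repair, was 60.2 points and AXL, a receptor kinase of invasive cells, 40.6 points higher in SK-N-AS, with no overlap of the arrays.

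Most genes for antigen presentation by MHC class I were higher in SK-N-AS. Of 17 measured members, 13 (76.5%) were higher in SK-N-AS and 1 (5.882%) in CHP134, against 26.8% and 32.5% of all clusters. By at least 20 points, 9 (52.9%) and 0 were higher, against 5.4% and 4.29%. The median difference was -24.1 points. Of the 13, ERAP2 was under background on all 18 arrays. HLA-C ranked at 34.7, 42.5 and 45.1 in CHP134 and 77.6, 81.8 and 82.8 in SK-N-AS, 39.7 ± 1.29 points (SE, adjusted p = 3.25e-14) apart. B2M, the light chain that every class I molecule needs, ranked at 77.05, 85.2 and 88.2 and 96.2, 96.8 and 98.7 (13.3 ± 1.61 points, SE, adjusted p = 1.67e-06). The immunoproteasome subunits PSMB8 and PSMB9 were 50.6 and 67.9 points higher in SK-N-AS, and PSMB9 was above background on 1 of the 12 CHP134 arrays. TAP1 and TAP2, the peptide transporter, were under background on all CHP134 arrays, at 13.88 to 21.3 and 11.2 to 19.1, and ranked at 47.6 to 56.2 and 51.9 to 62.6 in SK-N-AS. TAPBP, which holds the transporter to empty class I molecules, was 32.9 points and HLA-E, a ligand of natural killer receptors, 28.1 points higher in SK-N-AS.

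The oncofetal RNA-binding proteins differed by paralog. LIN28B, which blocks maturation of let-7 microRNAs, ranked at 75.4, 76.4 and 82.8 in CHP134 and 8.26, 10.1 and 13.1 in SK-N-AS, under background on all 6 arrays there, a difference of 66.8 ± 0.969 points (SE, adjusted p = 4.98e-19). IGF2BP1 ranked at 98.05, 98.3 and 98.97 in CHP134 and 24.1, 27.4 and 31.1 in SK-N-AS (70.9 ± 0.647 points, SE, adjusted p = 1.64e-21). Its paralog IGF2BP2 was 29.3 ± 2.76 points (SE, adjusted p = 6.90e-08) higher in SK-N-AS, at 14.8 to 26.6 and 42.98 to 60.8, and IGF2BP3 ranked at 88.1 to 92.7 and 90.8 to 92.8 and was not called (adjusted p = 0.483). HMGA2, a let-7 target, was 14.98 ± 2.12 points (SE, adjusted p = 9.74e-06) higher in SK-N-AS. In all, 4 of 10 members (40%) were higher in CHP134, 3 (30%) higher in SK-N-AS and 3 not called. Those shares were not far from the 32.5% and 26.8% of all clusters.

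In the insulin-like growth factor system, 4 of 14 members (28.6%) were higher in CHP134 and 7 (50%) higher in SK-N-AS, 0 and 5 by at least 20 points. Over all clusters the called shares were 32.5% and 26.8%. IGF2, the fetal growth factor, ranked at 33.9, 39.9 and 42.4 in CHP134 and 83.5, 95.4 and 95.9 in SK-N-AS, 53.3 ± 1.85 points (SE, adjusted p = 7.82e-14) higher in SK-N-AS, with 83.5 and 86.9 on the arrays that stood apart and 95.3 to 95.9 on the other 4, and 56.8 points apart without the former. Its signaling receptor IGF1R ranked at 59.8, 63.7 and 73.1 and 89.3, 91.8 and 94.6 (27.5 ± 1.58 points, SE, adjusted p = 9.17e-11). Of the binding proteins, IGFBP7 was 33.1 points higher in SK-N-AS and IGFBP2 18.04 points higher in CHP134.

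Targets of p53 were more often higher in CHP134, with 14 of 23 (60.9%), beside 4 (17.39%) in SK-N-AS and a median difference of 7.88 points. The shares of all clusters were 32.5% and 26.8%. By at least 20 points, 3 (13.04%) and 0 were higher, against 4.29% and 5.4% of all clusters. CDKN1A, the p21 inhibitor of cyclin-dependent kinases, ranked at 74.8, 83.7 and 87.2 in CHP134 and 52.3, 54.6 and 58.97 in SK-N-AS, 28.3 ± 1.64 points (SE, adjusted p = 1.02e-10) apart. PMAIP1, a pro-apoptotic BH3-only protein, was 25.3 ± 2.52 points (SE, adjusted p = 1.36e-07) and SESN1, a stress-induced sestrin, 20.8 ± 1.7 points (SE, adjusted p = 1.12e-08) higher in CHP134. FAS, a death receptor, had the opposite order and was under background on all CHP134 arrays (18.98 points higher in SK-N-AS, and at least 10.1 points with ranks under background set to the background percentile).

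Of 20 measured genes of the G1 phase, 6 (30%) were higher in each line and 8 not called, shares near those of all clusters (32.5% and 26.8%). On the deposited log2 scale the counts were 11 and 3. E2F1 and E2F2, activators of S-phase genes, were 21.7 ± 1.6 points (SE, adjusted p = 2.81e-09) and 26.7 ± 2.32 points (SE, adjusted p = 2.45e-08) higher in CHP134. CDKN2A, which encodes the p16 and ARF inhibitors, was 20.7 ± 2.005 points (SE, adjusted p = 9.63e-08) higher in SK-N-AS. CCND1, cyclin D1, ranked at 93.8, 95.8 and 96.7 in CHP134 and 92.5, 96.3 and 96.8 in SK-N-AS and was not called (adjusted p = 0.739). Of 20 measured genes that mark clinical risk in neuroblastoma, 8 (40%) were higher in CHP134 and 5 (25%) in SK-N-AS, also not far from those shares, and the 5 became 3 without the SK-N-AS arrays that stood apart. CASP8, the initiator caspase of death receptors that is often silenced in neuroblastoma, ranked at 1.06, 3.37 and 7.53 in CHP134, under background on all arrays, and 82.3, 84.2 and 86.1 in SK-N-AS. TIAM1, a Rac exchange factor, was 34.0 points, CADM1, an adhesion molecule, 24.5 points, PPM1D, a p53 phosphatase, 17.2 points and BIRC5, survivin, 10.6 points higher in CHP134.

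Markers of other cell types were at low or middling ranks in most cases. Of 20 measured, 4 (20%) were higher in CHP134 (2 with ranks under background set to the background percentile or without the arrays that stood apart). Higher in SK-N-AS were 5 (25%), and 11 were not called, against called shares of 32.5% and 26.8% over all clusters. The median rank of the list was 30.8 in CHP134 and 35.2 in SK-N-AS, with array medians of 26.1 to 34.4 and 33.3 to 37.7. The epithelial EPCAM ranked at 12.3 to 21.7 in CHP134, above background on 2 of 12 arrays, and 7.68 to 17.2 in SK-N-AS, under background on all 6, and the endothelial PECAM1 at 20.99 to 29.1 and 21.8 to 30.2. SK-N-AS had high ranks for some markers all the same. PTPRC, the leukocyte antigen CD45, ranked at 8.98, 13.6 and 16.2 in CHP134 and 89.5, 91.3 and 96.2 in SK-N-AS. KRT18 ranked at 19.02, 21.9 and 26.6 and 91.4, 92.4 and 92.9, KRT8, its partner in simple epithelia, at 58.9 to 79.4 and 90.3 to 93.8, and CD68, a lysosomal protein of macrophages, at 37.7, 41.7 and 47.7 and 83.8, 85.9 and 87.95. Of 12 measured Schwann cell and neural crest markers, 3 (25%) were higher in CHP134 and 0 in SK-N-AS, against 32.5% and 26.8% of all clusters. None differed by 20 points, and the neural crest factor SOX10 was at 58.3 to 70.5 and 45.2 to 53.95 (15.4 ± 2.1 points, SE, adjusted p = 6.66e-06). Whether other cells contributed RNA was not tested.

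**Figure D4:**
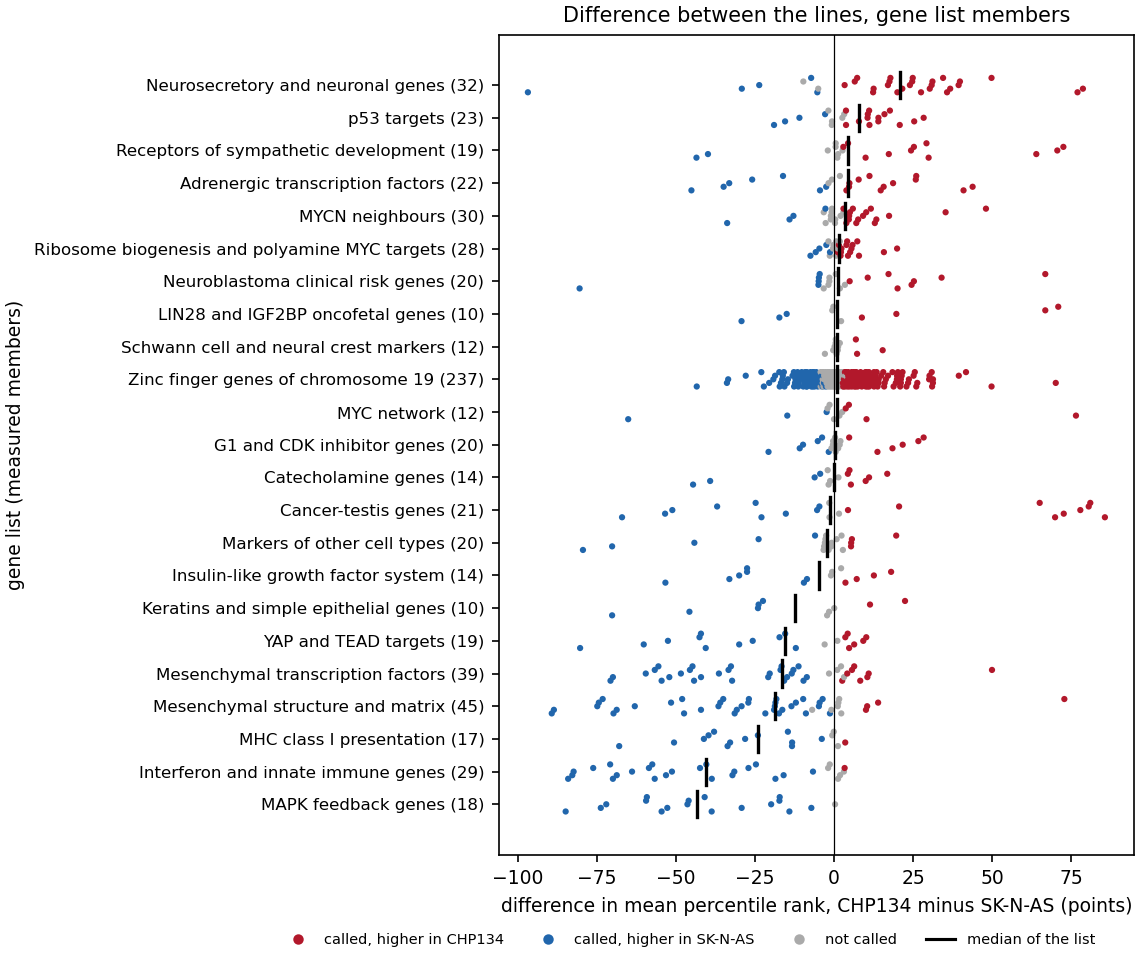
Difference in mean percentile rank, CHP134 minus SK-N-AS, of each member of 23 gene lists, ordered by the list median (black bar). Red and blue points were called by limma as higher in CHP134 or SK-N-AS and grey points were not. Neuronal genes lie mostly to the right, and mesenchymal, antigen presentation, interferon and MAPK feedback genes mostly to the left.

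The 12 largest differences towards CHP134, among called genes whose arrays did not overlap, were those of CLVS2, GAGE12G, TSPAN6, LRRN1, GAGE13, CTCFL, LIN7A, ABCA12, DCX, CERKL, GAGE1 and PKIB. They ranged from 77.2 points for PKIB, an inhibitor of protein kinase A, to 85.8 points for CLVS2, a neuronal lipid-binding protein of clathrin-coated vesicles. CLVS2 ranked at 90.6, 91.4 and 92.9 in CHP134 and 2.06, 5.41 and 10.7 in SK-N-AS. TSPAN6, a tetraspanin, ranked at 89.4, 93.1 and 95.01 and 5.99, 9.61 and 12.3, and LRRN1, a neuronal leucine-rich repeat protein, at 96.03, 96.8 and 97.9 and 11.3, 14.8 and 20.6. CTCFL, the testis relative of the insulator protein CTCF, ranked at 93.1, 93.8 and 94.4 and 9.38, 13.0 and 17.4. LIN7A, a scaffold of synapses, ABCA12, a lipid transporter of skin, and CERKL, a ceramide kinase relative, were under background on all 6 SK-N-AS arrays, and with ranks there set to the background percentile they were still at least 70.3, 62.2 and 62.1 points higher in CHP134.

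Of the 12, the genes GAGE12G, GAGE13 and GAGE1 belong to a family of near-identical copies on the X chromosome whose products are normally confined to the testis. GAGE12G ranked at 98.7, 98.95 and 99.2 in CHP134 and 11.01, 12.1 and 17.7 in SK-N-AS, GAGE13 at 95.8, 96.7 and 97.1 and 13.1, 15.1 and 18.7, and GAGE1 at 96.4, 96.96 and 97.2 and 15.6, 19.4 and 23.01. Their probes may share signal, so the values of single copies are uncertain. To show how alike the copies are before their start sites, 60 bases there are given 5′ to 3′ from RefSeq (GRCh38.p14), with the reverse complement of GATAAG, the core read by GATA factors, in capitals, 119, 122 and 115 bases before the start. All 3 pairs were identical at 60 of 60 bases, which were placed around the same match. They lie before the start, so they do not show whether the probes share signal.
GAGE12G (chrX:49570251-49570310, plus strand): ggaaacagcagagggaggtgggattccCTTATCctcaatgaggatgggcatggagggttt
GAGE13 (chrX:49331433-49331492, plus strand): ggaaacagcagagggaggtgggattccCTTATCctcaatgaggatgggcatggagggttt
GAGE1 (chrX:49598871-49598930, plus strand): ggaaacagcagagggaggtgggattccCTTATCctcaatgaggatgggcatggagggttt

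The 12 largest differences towards SK-N-AS were those of VIP, IL13RA2, HPGDS, LUM, TMEM176A, ANXA1, S100A11, H4C3, HGF, MGP, ETV5 and RGS13, from 84.7 points for RGS13, a regulator of G protein signaling, to 96.8 points for VIP. All 12 were under background on every CHP134 array. IL13RA2, a decoy receptor of interleukin 13, ranked at 0.0303, 0.45 and 2.23 in CHP134 and 94.8, 95.5 and 95.9 in SK-N-AS, at least 72.6 points higher with ranks under background set to the background percentile. HPGDS, which makes prostaglandin D2, ranked at 1.35, 2.64 and 8.47 and 96.7, 98.1 and 98.2. LUM, a proteoglycan of collagen fibrils, ranked at 3.74, 7.23 and 14.3 and 97.2, 97.8 and 98.8, and MGP, which inhibits calcification of matrix, at 1.23, 3.55 and 8.31 and 83.5, 91.5 and 92.97. HGF, the ligand of the MET receptor, ranked at 4.35, 13.1 and 20.6 and 99.5, 99.5 and 99.8. ETV5, an ETS factor induced by ERK signaling, ranked at 0.189, 4.84 and 10.8 and 85.7, 90.2 and 92.2, and TMEM176A, a membrane protein of immune cells, at 5.54, 6.88 and 9.94 and 97.9, 98.01 and 98.2. H4C3 encodes histone H4, as many near-identical genes do, and its value of 99.3, 99.5 and 99.6 in SK-N-AS against 7.31, 11.6 and 16.7 in CHP134 is uncertain for that reason.

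Promoter sequence was set beside these differences for the genes with a RefSeq window of 300 bases around the start, which 658 of the clusters at least 20 points higher in CHP134, 842 of those higher in SK-N-AS and 14253 of all tested clusters had. The E-box CACGTG, which is its own reverse complement, was present in 10.3% of the windows of the CHP134 group, 5.11% of the SK-N-AS group, 8.69% of all tested clusters and 7.43% of all 27305 genes with a window. TGANTCA, the AP-1 site, searched on both strands as were the others, was present in 3.5%, 7.24%, 5.75% and 7.76%. GATAAG was present in 4.86%, 4.99%, 5.18% and 6.36%, and GGAATG, read by TEAD factors, in 9.42%, 12.7%, 11.6% and 14%. These shares describe letters in a window and were not tested. As examples of named genes with a match, 60 bases around it are shown 5′ to 3′ from RefSeq (GRCh38.p14), with the match in capitals: an E-box in TSPAN6, higher in CHP134, and in YAP1 and BHLHE41, both higher in SK-N-AS, an AP-1 site in SP140L and CD68, and a TEAD core in ITGA5 and HGF, all higher in SK-N-AS.
TSPAN6 (chrX:100637194-100637253, minus strand): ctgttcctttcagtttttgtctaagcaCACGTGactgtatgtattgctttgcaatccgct
YAP1 (chr11:102110217-102110276, plus strand): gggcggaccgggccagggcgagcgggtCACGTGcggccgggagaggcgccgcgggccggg
BHLHE41 (chr12:26125053-26125112, minus strand): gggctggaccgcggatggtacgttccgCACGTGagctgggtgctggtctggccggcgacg
SP140L (chr2:230327121-230327180, plus strand): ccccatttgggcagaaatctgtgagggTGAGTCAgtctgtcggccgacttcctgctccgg
CD68 (chr17:7579511-7579570, plus strand): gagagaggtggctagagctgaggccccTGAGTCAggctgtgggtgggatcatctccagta
ITGA5 (chr12:54419316-54419375, minus strand): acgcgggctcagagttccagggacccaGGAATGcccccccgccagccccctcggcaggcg
HGF (chr7:81770219-81770278, minus strand): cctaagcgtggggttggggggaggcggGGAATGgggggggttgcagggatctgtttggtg
The matches began 122, 203 and 48 bases before the start for TSPAN6, YAP1 and BHLHE41, 45 and 100 bases before it for SP140L and CD68, and 82 and 204 bases before it for ITGA5 and HGF. SP140L, a relative of a nuclear body protein, ranked at 0.268 to 4.96 in CHP134 and 70.9 to 75.7 in SK-N-AS. The E-box stood before genes of either direction, YAP1 at 15.1 to 31.9 in CHP134 and 66.7 to 73.5 in SK-N-AS and TSPAN6 at 89.4 to 95.01 and 5.99 to 12.3.

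By chromosome, chromosome 22 stood out by its median difference of 3.96 points, against 0.511 over all clusters. Of its 400 clusters, 220 (55%) were higher in CHP134 and 60 (15%) higher in SK-N-AS, and the running median of 50 genes was above 0 along its whole length. On chromosome 17, 454 of 1035 clusters (43.9%) were higher in CHP134 and 179 (17.3%) in SK-N-AS, and on chromosome 10 the order was turned, with 179 of 681 (26.3%) and 278 (40.8%). Shorter stretches had larger medians. The 50 genes from MAU2 to TSHZ3 on chromosome 19 had a median of 14.1 points, with 38 higher in CHP134 and 2 in SK-N-AS, and the 50 genes from GTF3C6 to CLVS2 on chromosome 6 had 13.7 points, with 36 and 6. The 50 genes from ZNF644 to S1PR1 on chromosome 1 had -9.99 points, with 6 higher in CHP134 and 36 in SK-N-AS. Copy number was not measured, and these stretches were picked as the extremes of the running median, so they carry no test. Among the zinc finger genes of the first stretch, ZNF626 ranked at 76.7 to 87.6 in CHP134 and 30.97 to 36.4 in SK-N-AS.

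**Figure D5:**
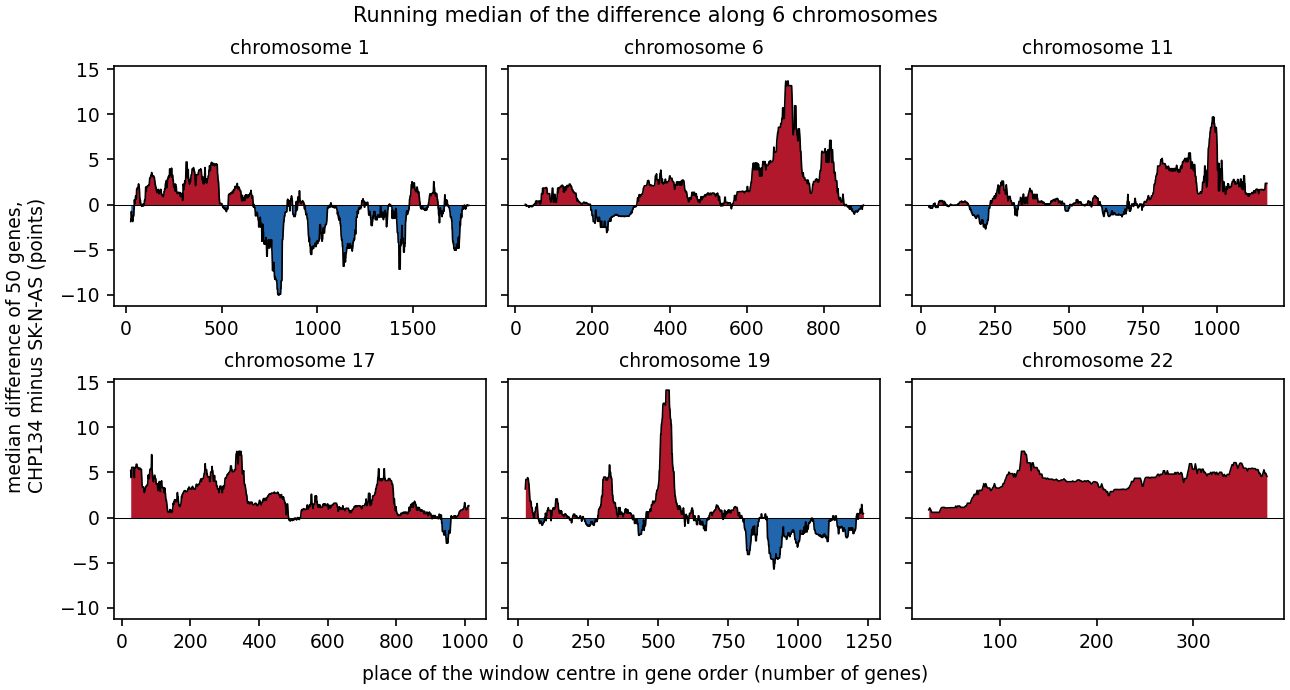
Running median of the difference in percentile rank, CHP134 minus SK-N-AS, over 50 neighboring genes along 6 chromosomes, plotted against the place of the window's center in gene order. Chromosome 22 stays above 0 throughout, chromosomes 6 and 19 each have 1 tall peak, and chromosome 1 has a trough.

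Pooling vehicle and DOX arrays was checked by the interaction of line and DOX. limma called 0 of 21448 clusters, the smallest adjusted p being 0.9999. Before adjustment 387 clusters had a p under 0.05, fewer than chance alone would give, and with normal scores of the ranks 1 cluster was called. SK-N-AS had 3 arrays per treatment, and 1 of each treatment stood apart, which widens the spread. The check could therefore miss a DOX effect that differs between the lines. The line difference was then set beside vehicle arrays of cells with a JMJD6 shRNA that had not been induced, 8 of CHP134 and 3 of SK-N-AS, which did not enter the comparison above. All 2079 large differences had the same sign there and 2074 of them were also called. MYCN differed by 75.6 points in those cells, MYC by 62.7 in favor of SK-N-AS, PRRX1 by 44.9 and VIP by 96.3. They are arrays of the same lines, normalized in the same runs.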

How the data were processed

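RNA was hybridised to Affymetrix Clariom S Human arrays, 1 sample per array. The deposited values were log2 intensities that the authors had background-corrected, quantile-normalized and summarised by RMA, each line apart. The RMA version and the genome build of the array design are not given in the sources used here. Of 27189 probe sets, 5741 control sets were left out, and 4 columns identical to others (difference 0) were dropped. Of the 21448 clusters, 17709 had 1 gene symbol and 3739 none. Groups came from the labels.

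Each array was ranked (percentiles, ties averaged), and lmFit and eBayes of limma 3.58.1 in R 4.3.3 were run on 4 group means (line by treatment), with the line contrast averaged over treatments and Benjamini-Hochberg adjustment over all clusters at 0.05. SE is the moderated standard error. Background was the 95th percentile of the negative controls of an array. RMA starts from probes with a dim end close to noise, and scaling each line apart removes any difference in total RNA, so ranks carry no absolute amounts. The number of arrays limits the precision.

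Named genes were MYCN, MYC, VIM, JMJD6 and 16 others taken whatever their values, the 12 largest differences each way among called genes with 1 symbol and no overlap (Y-linked genes and XIST left out), and in each of 18 lists up to 8 called members with the largest differences and up to 3 not called with the smallest. Members and lists were chosen with earlier results of these data known, 5 more lists and the alternatives without the arrays that stood apart and with ranks set to background were added after seeing the data. CYRIA, RAD51AP2, ST18, ERAP2, NPY, SCG2, PECAM1, CGAS, ISG15, CTAG2, MAGEC1 and the genes at the ends of the chromosome stretches fell outside this rule and were chosen after their values were seen. So were JUN, FOSL2, TWIST1, TWIST2, SNAI1, SNAI2, ZEB1 and ZEB2. Gene order and promoter sequence came from RefSeq (GRCh38.p14).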

Additional observations from a re-analysis of the deposited data

Results flagged for a closer look

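Of 453 sets of 6 control arrays tested, 25 held 1 array whose gap to the nearest other was above Dixon's 95% critical share of the range, and chance flags about 1 in 20 such sets. The sets were the ranks of a named gene on the CHP134 vehicle, CHP134 DOX or SK-N-AS arrays, and each value below is a percentile rank with the range of the other 5 arrays. On CHP134 DOX repeat A, FN1 ranked at 43.7 (others 27.8 to 32.2), IGF1R ranked at 73.1 (others 61.2 to 65.5), IGF2BP2 ranked at 26.6 (others 19.5 to 21.9), ZNF626 ranked at 76.7 (others 82.4 to 85.4). On CHP134 DOX repeat B, CASP4 ranked at 2.04 (others 5.89 to 7.4), GAGE2A ranked at 95.3 (others 95.9 to 96.2), SYT4 ranked at 42.9 (others 34.6 to 37.2). On CHP134 DOX repeat C, BIRC5 ranked at 94.7 (others 92.2 to 93.1). On CHP134 DOX repeat D, SIX4 ranked at 68.1 (others 71.8 to 73.1). On CHP134 DOX repeat E, MAGEC2 ranked at 6.66 (others 12.7 to 14.9), MAX ranked at 86.6 (others 88.2 to 89.1). On the SK-N-AS vehicle array without a letter, LMO3 ranked at 36.8 (others 44.2 to 47.4). On CHP134 vehicle repeat B, HMGA2 ranked at 30.2 (others 37.6 to 41.9), IGF2BP3 ranked at 88.1 (others 91.2 to 92.7), MAGEC2 ranked at 22 (others 11.3 to 14.7). On CHP134 vehicle repeat C, CDKN1A ranked at 74.8 (others 82.1 to 86.4), ETV4 ranked at 35.9 (others 26.2 to 29.8), HPGDS ranked at 8.47 (others 1.35 to 3.14), LIN28B ranked at 82.8 (others 75.4 to 77.5), MAX ranked at 90.3 (others 88.9 to 89.4), NPY ranked at 45.8 (others 53.9 to 58.8), PSMB9 ranked at 15.8 (others 18.9 to 20.6), SRM ranked at 98.1 (others 99.2 to 99.4). On CHP134 vehicle repeat F, LUM ranked at 14.3 (others 4.06 to 7.61) and RAD51AP2 at 3.99 (others 0.31 to 1.21).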

How the results depend on the processing

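Of 151 named genes, 144 were called and 133 kept direction and call under every alternative run. The count of 12721 calls was 11969 to 12793 and that of large differences 2062 to 2130 when any 1 array was left out. Calls numbered 9293 on vehicle arrays alone, 10249 on DOX arrays alone and 9690 in JMJD6 shRNA cells with vehicle. Large differences in these smaller sets numbered 2100, 2084 and 2129. Large differences numbered 4178 on the deposited log2 scale, 4060 on centred log2 values and 4023 after quantile normalization of all 18 arrays (at least 1 log2 unit), and 3254 with normal scores (at least 0.5), which also gave 1 interaction call; other cut-offs make these counts larger or smaller by construction. Pairing by repeat letter was checked on deviations from group means: the same letters correlated at 0.392 to 0.503 in CHP134 but at -0.452, -0.481 and 0.275 in SK-N-AS. Arrays of the same letter thus deviated together in CHP134, but not in SK-N-AS as a rule. Unlike letters also correlated in CHP134 within A and B (0.358 and 0.460), C and D (0.312 and 0.178) and E and F (0.404 and 0.445), and the SK-N-AS vehicle array without a letter correlated with DOX repeat B at 0.650. The CHP134 arrays thus deviated together in sets of 2 letters. The main fit took all arrays as independent and the replicate block used single letters, so p-values from both may be too small. With CHP134 repeats A and B, C and D or E and F alone, 11429, 11361 and 12463 clusters were called, 2135, 2158 and 2162 with large differences. With the replicate block (consensus correlation 0.244), 11891 clusters were called, 2079 large and 0 for the interaction. Calls lost under at least 1 alternative were those of CGAS, EPCAM, GATA3, HAND2, ISG15, MAX, MLXIP, RAD51AP2, ST18 and TH. TH differed by 0.756 points in JMJD6 shRNA cells, 2.73 with DOX arrays alone and 10.0 with CHP134 repeats E and F alone. The sign turned for IGF2BP3 on the log2 scale (0.19, centred 0.10), DBH with repeats C and D alone (-1.04), CGAS in JMJD6 shRNA cells (-0.558), RAD51AP2 and ERAP2 with ranks under background set to the background percentile (1.904 for both, the gap between the lines' own thresholds), SYT4 without both arrays that stood apart (3.001) and CCND1 with repeats C and D alone (-0.694), array weights (-0.347), without SK-N-AS DOX repeat B (-0.185), without the unlettered SK-N-AS vehicle array (-0.381) and without both (-0.886), the values without 1 array reaching up to 0.703; the cause was not tested for the others than RAD51AP2 and ERAP2. Of the lists, 8 mesenchymal factors higher in CHP134 became 3 to 5 in subsets of the arrays, and 16 MYCN neighbors became 10 in JMJD6 shRNA cells. Ranks under background have no order, and array number limits the precision.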

Other observations

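Lists added after the values had been seen described further genes, so their counts are descriptions. Of 18 feedback and target genes of MAPK signaling, 17 (94.44%) were higher in SK-N-AS and 0 in CHP134, against 26.8% and 32.5% of all clusters. By at least 20 points, 12 (66.67%) were higher in SK-N-AS, against 5.4% of all clusters. The median difference was -43.5 points, CHP134 minus SK-N-AS. SPRY2 and SPRY4, which restrain receptor signaling, ranked at 6.89 to 16.4 and 7.9 to 16.7 in CHP134 and 82.4 to 87.7 and 80.2 to 87.2 in SK-N-AS. DUSP6, a phosphatase of ERK, ranked at 15.9, 22.3 and 27.8 in CHP134 and 76.02, 77.99 and 91.8 in SK-N-AS (59.2 ± 2.41 points higher, SE, adjusted p = 7.78e-13), and ETV4, an ETS factor, was 59.4 ± 1.42 points (SE, adjusted p = 4.28e-16) higher. Of 29 interferon and innate immune genes, 23 (79.31%) were higher in SK-N-AS and 1 (3.448%) in CHP134, against the same shares of all clusters. By at least 20 points, 20 (68.97%) and 0 were higher, against 5.4% and 4.29% of all clusters. The median difference was -40.4 points. The DNA-editing enzyme APOBEC3C ranked at 2.91, 7.16 and 10.9 in CHP134 and 88.7, 91.3 and 92.8 in SK-N-AS, PARP14, an ADP-ribosyltransferase, at 2.996 to 12.04 and 89.1 to 92.2, and CASP4, an inflammatory caspase, at 2.04 to 13.1 and 79.8 to 84.1. ISG15, a ubiquitin-like protein, differed less, at 24.1 to 39.9 and 37.1 to 42.5. CGAS, a sensor of cytosolic DNA and the 1 gene called with the higher rank in CHP134, was under background on all 18 arrays.

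Cancer-testis genes split by family, with 9 of 21 (42.9%) higher in each line, against 32.5% and 26.8% of all clusters. The genes GAGE2A, GAGE10 and PAGE1 were 65.02, 69.9 and 72.6 points higher in CHP134, as were the GAGE genes named above. The genes MAGEC2, MAGEC1 and CTAG2 were 67.04, 53.4 and 51.1 points higher in SK-N-AS. Of 10 keratin and simple epithelial genes, 5 (50%) were higher in SK-N-AS and 2 (20%) in CHP134, against 26.8% and 32.5% of all clusters. All 5 differed by at least 20 points, against 5.4% of all clusters. PKP2, a desmosomal plakophilin, ranked at 25.3 to 31.4 in CHP134 and 70.5 to 79.5 in SK-N-AS. Of 237 zinc finger genes of chromosome 19, 101 (42.6%) were higher in CHP134 and 71 (30%) in SK-N-AS, of which 5 and 1 were under background on all 18 arrays. By at least 20 points, 23 (9.7%) and 7 (2.95%) were higher, and the median difference was 0.922 points. Over all clusters, 32.5% and 26.8% were called, 4.29% and 5.4% differed by at least 20 points, and the median was 0.511 points.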
